A study of Mus musculus with 8 samples.

Results

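The genes that make, break down and sense histamine were examined in the hypothalamus of adult male C3H/HeN mice exposed to maternal separation (MS, labelled Stress) or left undisturbed (control, labelled Ctrl). The 5 genes were Hdc, Hnmt, Hrh1, Hrh2 and Hrh3, and their probes were taken by gene name from the array, which carried 8 of them among 55681 probes and 22328 named genes. MS mice were separated from the dam daily from postnatal day (PND) 2 to 14 while the dam went through unpredictable stress, and control pups stayed with the dam. All mice were weaned at PND 21, housed with mice of the same sex and condition, and food deprived before the brain was taken. The brains were taken after operant testing for sweetened milk, which began under food restriction and used an inverted light cycle. In the paper, MS males of this strain pressed more for milk under random and progressive ratio schedules. The part of this history in the values was not tested. Each group held 4 mice, MS 5.3, 7.1, 7.2 and 7.6 and control 6.2, 8.2, 8.4 and 8.5, and each hypothalamus was hybridized on 1 array from 200 ng of total RNA. Litter and cage of each mouse were not given in the sources used here, so mice of a group may share them and every p-value reflects variation among these 8 animals only.

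Histamine is a transmitter of the brain that is made from histidine by histidine decarboxylase, the product of Hdc. In the brain its neurons lie in the tuberomammillary nucleus of the posterior hypothalamus, fire during waking, and project to most of the brain, where histamine promotes arousal and limits food intake. Histamine N-methyltransferase, the product of Hnmt, inactivates histamine in neural tissue. Hrh1 couples to Gq and excites its target cells, Hrh2 couples to Gs, and Hrh3 couples to Gi/o and acts as an autoreceptor on histamine neurons and as a heteroreceptor on the terminals of other neurons. Mast cells also make histamine and carry Hdc.

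Each value rests on 1 stretch of a transcript, and the probes of Hnmt and Hrh1 lie on different stretches of the same transcript. The first 30 of the 60 bases of each probe are therefore shown, 5′ to 3′ as listed in the array design, so that the probes that gave different results can be told apart.
Hdc A_51_P254656: ttgatcataacctcacagggtcttcgtgat
Hnmt A_51_P465292: gaaagaaaatactctgtctaaacactgcct
Hnmt A_55_P2043509: gttgaggcaaatgtataagtcataagagta
Hrh1 A_55_P2045007: ctgtccaaacgagatatttttgcttaccta
Hrh1 A_66_P125883: tgagtacttgccggcggatcagtgagacat
Hrh1 A_55_P2034081: agtaattacgaaccctggctgctcttgtag
Hrh2 A_51_P187242: gcttgcaagccacaactctcacaaaacttc
Hrh3 A_51_P289107: acacctgggaggaatgctttgcctcgtcct

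In the mouse build mm9, to which the file headers refer, the Hdc probe lay at chr2:126419516-126419575 on the minus strand. The Hnmt probes lay at chr2:23858856-23858915 and chr2:23859071-23859130, and the Hrh3 probe at chr2:179834245-179834304, all on the minus strand. The Hrh1 probes lay on the plus strand at chr6:114432416-114432475 for A_55_P2045007, chr6:114430763-114430822 for A_66_P125883 and chr6:114433129-114433188 for A_55_P2034081. The Hrh2 probe lay at chr13:54310290-54310349 on the plus strand. Along the Hrh1 transcript the probes began at base 1340 (A_66_P125883), 2993 (A_55_P2045007) and 3706 (A_55_P2034081), and along the Hnmt transcript at base 940 (A_55_P2043509) and 1155 (A_51_P465292). Which of these stretches are coding and which belong to an untranslated region was not analysed here.

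A level is the log2 of the processed signal minus the 75th percentile of the same array, so 0 is a fairly bright probe and each step of 1 is a doubling. Levels of different probes were not set against each other, since probes differ in how they bind. The percentile subtracted was taken over the log2 values of the probes. Over single spots the 75th percentile of the processed signal was 566 for MS 7.6, the dimmest array, and at least 853 for the other 7. All 8 arrays came from 1 slide, and each of its 2 rows held 2 MS and 2 control mice. Probes that were not well above background on 4 arrays or more were left out, which kept 37322 probes, among them 7 of the 8 for histamine genes.

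For histamine genes, 0 of 7 probes passed an adjusted p under 0.05 (limma, Benjamini-Hochberg), against 0% of all probes tested, where the smallest adjusted p was 0.135. At an unadjusted p under 0.05, 2 of the 7 probes were higher in MS mice, those of Hdc and the brightest of Hrh1, and none was lower, against 1% of all probes higher and 2.41% lower (3.41% in either direction). For each of the 7 probes the groups overlapped, whereas they did not for 2.03% of all probes. Groups of 4 and 4 mice allow an exact permutation p of 0.0286 at the lowest.

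**Figure D1:**
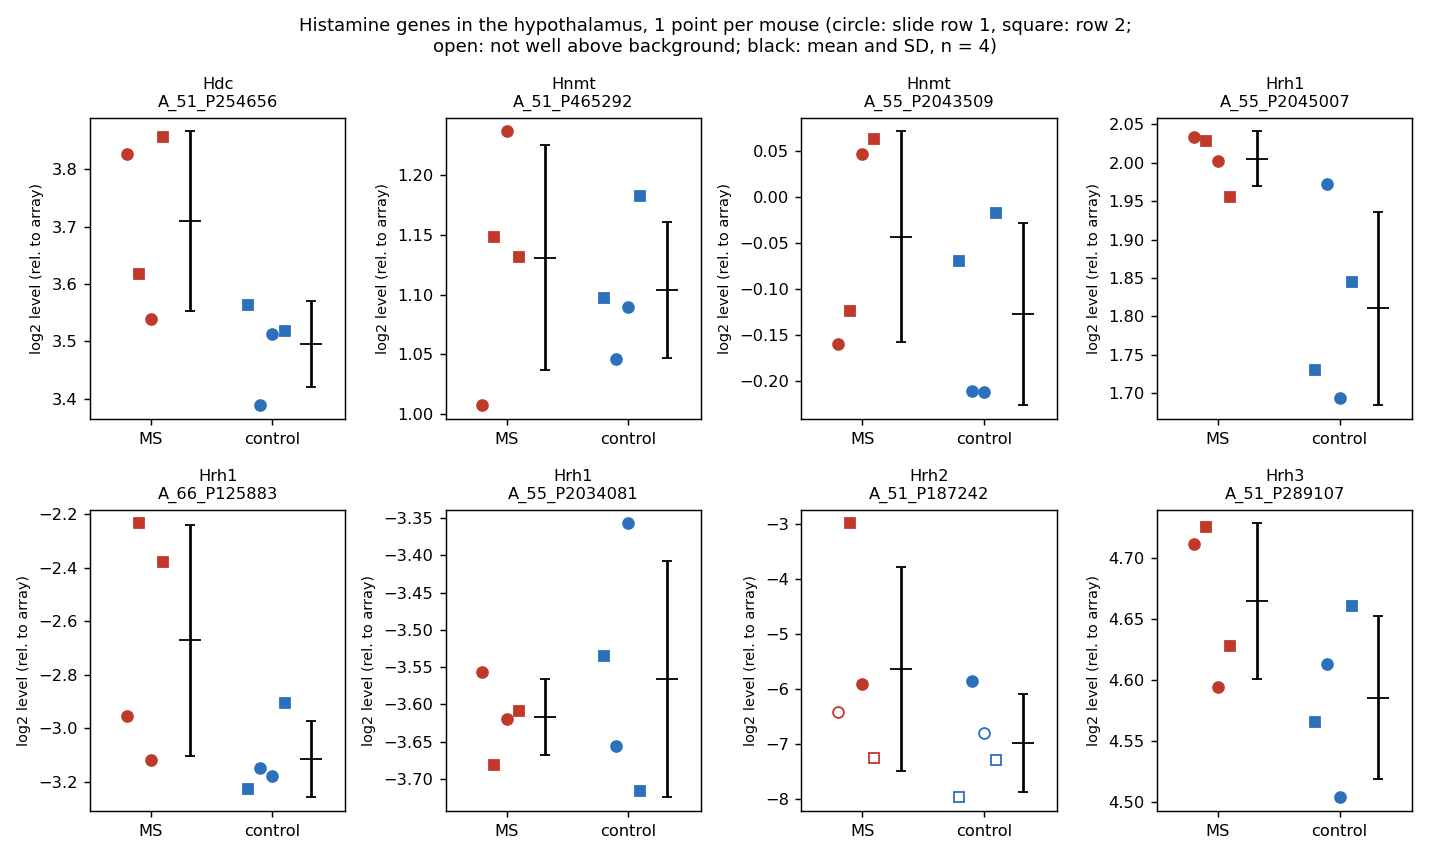
Log2 level of each probe of the 5 histamine genes relative to the 75th percentile of the array (vertical axis, own scale per panel), with MS mice at left and control mice at right; each point is a mouse and the black mark is the mean with its SD (n = 4). Hdc was above the highest control mouse in 3 of 4 MS mice, and Hrh2 was well above background on 3 arrays only.

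Hdc, the enzyme of histamine synthesis, had levels of 3.83 (MS 5.3), 3.62 (MS 7.1), 3.54 (MS 7.2) and 3.86 (MS 7.6) in MS mice. In control mice its levels were 3.56 (control 6.2), 3.39 (control 8.2), 3.51 (control 8.4) and 3.52 (control 8.5). Of the 4 MS mice, 3 lay above the highest control mouse, and MS 7.2 lay among the controls. Hdc averaged 3.71 ± 0.16 in MS and 3.50 ± 0.08 in control mice (SD, n = 4 each), a log2 fold change of 0.21 ± 0.09 (SE) or 1.16-fold (95% confidence interval 1.01 to 1.33). The limma p was 0.0384 before and 0.989 after adjustment, and the exact two-sided permutation p was 0.0571. The difference was 0.23 in the first and 0.20 in the second row of the slide. The highest level came from MS 7.6, whose array was the dimmest, and without this mouse the log2 fold change was 0.17. With each mouse left out in turn it ran from 0.17 to 0.27, and the unadjusted limma p was no longer under 0.05 in 5 of 8 cases (without MS 5.3, MS 7.6, control 8.2, control 8.4 or control 8.5). In a dissected hypothalamus, a difference in the number of histamine neurons and a difference in RNA per neuron cannot be told apart.

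Hnmt, the enzyme that inactivates histamine, had nearly the same level in both groups. With probe A_51_P465292 its levels were 1.01 (MS 5.3), 1.15 (MS 7.1), 1.24 (MS 7.2) and 1.13 (MS 7.6) in MS mice, against 1.10 (control 6.2), 1.05 (control 8.2), 1.09 (control 8.4) and 1.18 (control 8.5) in control mice. The lowest and the highest of the 8 levels were both from MS mice. The log2 fold change was 0.03 ± 0.07 (SE), with a 95% interval of -0.12 to 0.18 (limma p = 0.69, adjusted p = 0.99, exact permutation p = 0.6). The second probe, A_55_P2043509, averaged -0.04 ± 0.11 in MS and -0.13 ± 0.10 in control mice (SD, n = 4 each), and its log2 fold change was 0.08 (interval -0.10 to 0.27). Across the 8 mice the pair of probes had r = 0.74 (exact permutation p = 0.0387, 0.155 adjusted over the 4 probe pairs of Hnmt and Hrh1) and rho = 0.71 (exact p = 0.0576, adjusted 0.192). Without the 2 mice farthest from the median r was 0.66.

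Hrh1, the excitatory Gq-coupled receptor, was measured by 3 probes that did not give the same result. With the brightest, A_55_P2045007, levels were 2.03 (MS 5.3), 2.03 (MS 7.1), 2.00 (MS 7.2) and 1.96 (MS 7.6) in MS mice. In control mice they were 1.73 (control 6.2), 1.97 (control 8.2), 1.69 (control 8.4) and 1.85 (control 8.5). The MS mice lay close together, and control 8.2 lay within their range while the other 3 controls lay below it. Hrh1 averaged 2.01 ± 0.04 in MS and 1.81 ± 0.13 in control mice (SD, n = 4 each), a log2 fold change of 0.19 ± 0.07 (SE) or 1.14-fold (interval 1.02 to 1.28). The limma p was 0.0265 before and 0.989 after adjustment, and the exact permutation p was 0.0571. The difference was 0.19 in the first row of the slide and 0.20 in the second. With 1 mouse left out it ran from 0.16 to 0.25, and the unadjusted limma p missed 0.05 in 5 of 8 cases (without MS 5.3, MS 7.1, MS 7.2, control 6.2 or control 8.4).

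Probe A_66_P125883, which lies nearest to the start of the Hrh1 transcript, was dim, with levels of -2.95 (MS 5.3), -2.23 (MS 7.1), -3.12 (MS 7.2) and -2.38 (MS 7.6) in MS mice. Its levels in control mice were -3.23 (control 6.2), -3.15 (control 8.2), -3.18 (control 8.4) and -2.91 (control 8.5). MS 7.1 and MS 7.6 stood above the other 6 mice, and both lay in the second row of the slide. The log2 fold change was 0.44 (interval -0.01 to 0.90, limma p = 0.0559, exact permutation p = 0.114), with a difference of 0.13 in the first row and 0.76 in the second. Probe A_55_P2034081, toward the end of the transcript, averaged -3.62 ± 0.05 in MS and -3.57 ± 0.16 in control mice (SD, n = 4 each), a log2 fold change of -0.05 (interval -0.24 to 0.14). Its sign turned with the processing. Over the 8 mice, the brightest probe had r = 0.50 with A_66_P125883 and r = -0.63 with A_55_P2034081, and the dim pair had r = -0.44. The exact permutation p of these pairs was 0.181, 0.0866 and 0.277, or 0.241, 0.173 and 0.277 after adjustment, with rho of 0.55, -0.38 and -0.64 (exact p = 0.171, 0.36 and 0.0962, adjusted 0.228, 0.36 and 0.192). Without the 2 mice farthest from the median r became 0.14, 0.64 and -0.52. Under the reported settings, 1 of the 3 Hrh1 probes was higher in MS mice at an unadjusted p under 0.05. A_66_P125883 was also under that threshold in 11 of 20 alternatives, among them the slide row as a block (0.44, limma p = 0.0183, exact permutation p of the unblocked values 0.114) and the authors' table (0.32), and in none of them after adjustment.

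Hrh2, the Gs-coupled receptor, was well above background on 3 of 8 arrays, 2 of MS mice (7.1 and 7.2) and 1 of a control mouse (8.2), and was not tested across all probes. Its processed signal was 9.38 (MS 5.3), 102 (MS 7.1), 15.0 (MS 7.2) and 3.27 (MS 7.6) in MS mice, against 3.06 (control 6.2), 14.8 (control 8.2), 7.21 (control 8.4) and 4.77 (control 8.5) in control mice. The signal of MS 7.1 stood apart from the other 7. The corresponding levels were -6.43, -2.99, -5.91 and -7.26 in these MS mice and -7.97, -5.85, -6.81 and -7.30 in these control mice. The mean difference of 1.34 had an exact permutation p of 0.257 and was 0.45 without MS 7.1. A difference in Hrh2 was not detectable at this signal.

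Hrh3, the autoreceptor and heteroreceptor, had levels of 4.71 (MS 5.3), 4.73 (MS 7.1), 4.59 (MS 7.2) and 4.63 (MS 7.6) in MS mice, against 4.57 (control 6.2), 4.61 (control 8.2), 4.50 (control 8.4) and 4.66 (control 8.5) in control mice. MS 5.3 and MS 7.1 lay above all controls, and the other MS mice lay among them. The log2 fold change was 0.08 ± 0.06 (SE), with an interval of -0.06 to 0.22 (limma p = 0.224, adjusted p = 0.989, exact permutation p = 0.171). The SD over the 8 mice was 0.0739 for Hrh3 and 0.0736 for Hnmt, which lies at the 20.8th and the 20.6th percentile of 17318 genes. Over the 8 mice, Hdc had an SD of 0.161 (70.5th percentile) and Hrh1 of 0.135 (60.7th percentile), while the median over all genes was 0.114. These SDs include the difference between the groups. Within groups the SD was 0.123 for Hdc (54.3rd percentile) and 0.0928 for Hrh1 (35.4th percentile), against a median of 0.115. For Hrh3 and Hnmt it was 0.0654 (14.3rd percentile) and 0.078 (23.9th percentile).

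Beyond these 5 genes, 8 of 9 other genes that handle histamine passed the filter on background, and Slc22a3, a transporter of organic cations, did not. None passed at an adjusted p under 0.05, 1 was higher in MS mice at an unadjusted p under 0.05, and the median log2 fold change was 0.05, against 0.007 over all 17318 genes, of which 0.941% were higher at that threshold. That gene was Slc18a2, the vesicular monoamine transporter that loads histamine and other amines into vesicles. Its levels were 2.51 (MS 5.3), 2.19 (MS 7.1), 2.44 (MS 7.2) and 2.25 (MS 7.6) in MS mice, against 2.15 (control 6.2), 2.18 (control 8.2), 2.03 (control 8.4) and 2.15 (control 8.5) in control mice. All MS mice lay above all control mice, as for 0.788% of all probes, with a log2 fold change of 0.22 ± 0.08 (SE, limma p = 0.0311, adjusted p = 0.989, exact permutation p = 0.0286, the smallest possible). Maob, which oxidizes the methylated product of Hnmt, had a log2 fold change of 0.13 (limma p = 0.0907, exact permutation p = 0.0571) and Maoa, the other monoamine oxidase, of 0.07 (limma p = 0.539). Hal, which degrades histidine, had one of 0.16 (limma p = 0.0968, exact permutation p = 0.114), and Slc7a5, an amino acid transporter that takes up histidine, of 0.01. The cation transporters Slc29a4 and Slc22a2 had log2 fold changes of -0.02 and -0.24, and Aoc1, diamine oxidase, of 0.04. For Slc22a2 the interval ran from -1.84 to 1.35.

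The 10 G protein and effector genes through which the receptors signal had log2 fold changes of -0.04 to 0.11, with a median of 0.03 and none at an unadjusted p under 0.05. The smallest p above 0 was that of Gnai1, an inhibitory G protein subunit (0.10, limma p = 0.0704, exact permutation p = 0.0286), and Gnaq, the partner of Hrh1, had a log2 fold change of 0.11 (limma p = 0.365). Below 0, the smallest p was that of Plcb1, a phospholipase downstream of Gq (-0.04, limma p = 0.646, exact permutation p = 0.629).

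**Figure D2:**
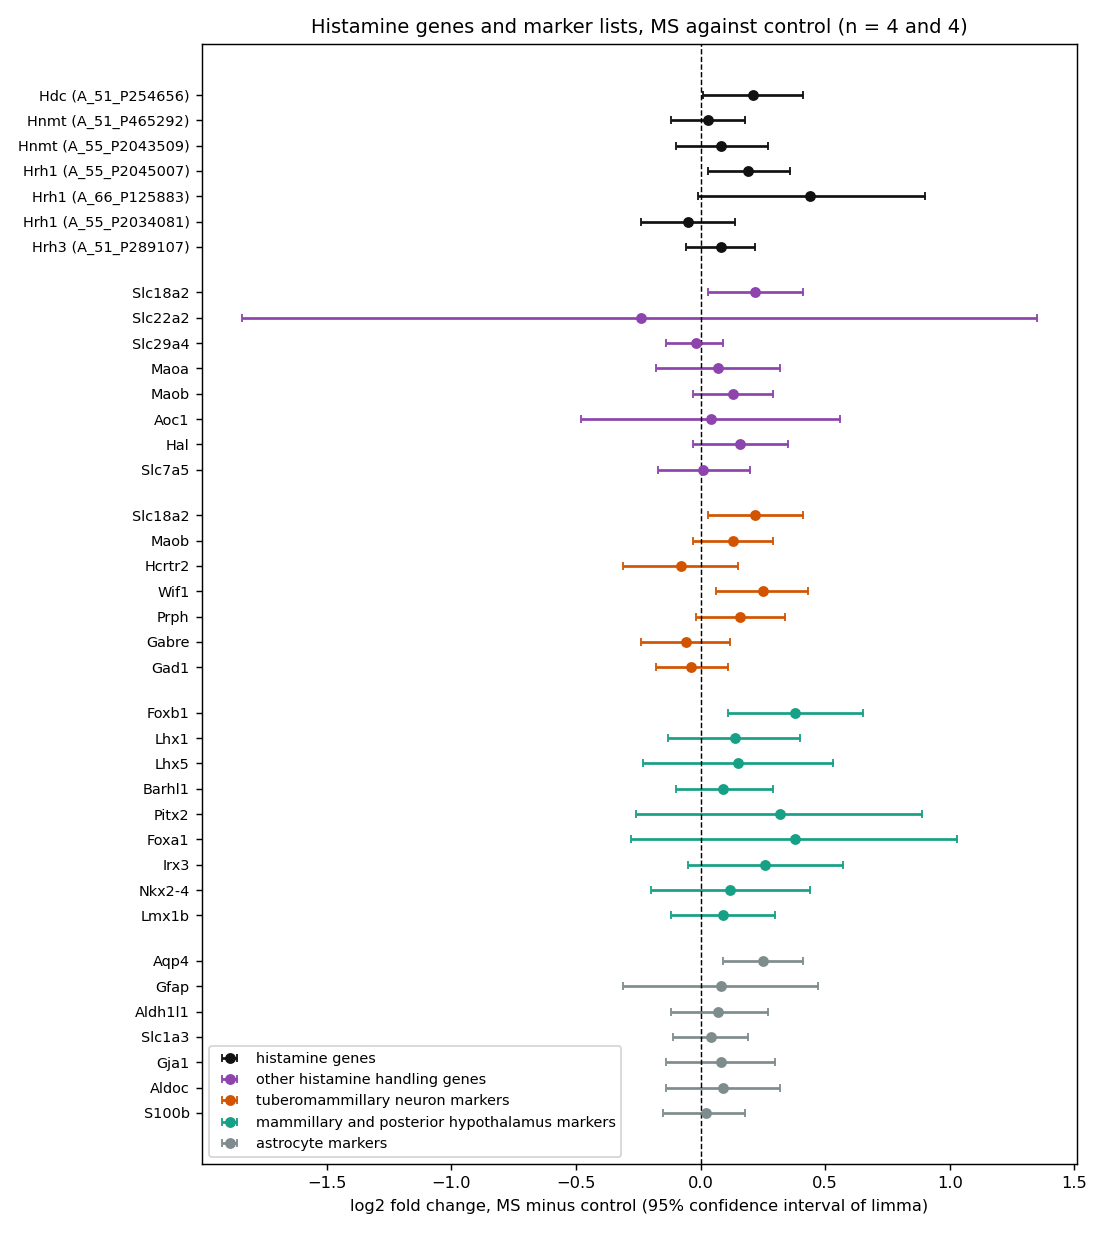
Log2 fold change of MS minus control (horizontal axis) with the 95% confidence interval for the 7 tested probes of the histamine genes and for the measured genes of 4 lists, 1 probe per gene. Slc18a2 and Maob belong to both the histamine handling and the tuberomammillary list and appear in each.

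The tissue was checked for the neurons and cells that carry Hdc. All 7 tuberomammillary markers were measured, and none passed at an adjusted p under 0.05, while 2 were higher in MS mice at an unadjusted p under 0.05 (0.941% of all genes). One of them, Slc18a2, is the gene already counted among those that handle histamine. The median of the list was 0.13 on the log2 scale, with 4 of 7 above 0, against 53.6% of all genes. The other was Wif1, a secreted Wnt inhibitor, with a log2 fold change of 0.25 (limma p = 0.0161, exact permutation p = 0.0571). Wif1 levels were 0.79 (MS 5.3), 0.72 (MS 7.1), 0.80 (MS 7.2) and 0.51 (MS 7.6) in MS mice, against 0.57 (control 6.2), 0.46 (control 8.2), 0.38 (control 8.4) and 0.43 (control 8.5) in control mice. MS 7.6, the mouse with the highest Hdc level, had the lowest Wif1 level of the MS group. Prph, the intermediate filament peripherin, had a log2 fold change of 0.16 (limma p = 0.0796, exact permutation p = 0.0857), and Hcrtr2 (orexin receptor), Gabre (GABA-A receptor subunit) and Gad1 (GABA synthesis) had -0.08, -0.06 and -0.04.

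Of 7 mast cell markers only Tpsb2, a tryptase, passed the filter, with a log2 fold change of 0.09 (limma p = 0.281, exact permutation p = 0.314). Its r with Hdc over the 8 mice was 0.70, given without a test. Cpa3, Tpsab1, Cma1, Fcer1a and Ms4a2 were well above background on 0 arrays and Mcpt4 on 1. Hdc itself was well above background on all 8 arrays.

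Markers of other regions and cells of the dissected tissue were set beside these values. For the mammillary and posterior hypothalamus, 9 of 9 markers averaged higher in MS mice (median 0.15 on the log2 scale), as did 53.6% of all genes. Foxb1, a transcription factor of the mammillary body, was the one at an unadjusted p under 0.05 (0.38, limma p = 0.0114, exact permutation p = 0.0571). The mean deviation of this list ran from -0.17 to 0.26 in MS and from -0.31 to 0.06 in control mice. The 4 measured lateral hypothalamus markers were all below 0, with 3 at an unadjusted p under 0.05 (Hcrt -1.45, Pmch -0.46 and Lhx9 -0.26, for orexin, melanin-concentrating hormone and a transcription factor of orexin neurons), against 1.72% of all genes lower at that threshold, and a median of -0.36. Their exact permutation p was 0.143, 0.0857 and 0.0286. Hcrt was low in MS 5.3 (3.46) and MS 7.2 (3.54), while MS 7.1 (5.94) and MS 7.6 (5.62) lay within the control range of 5.51 to 6.65. All 7 astrocyte markers were above 0, as were 53.6% of all genes. Among them Aqp4, the water channel of astrocyte endfeet, was at 0.25 (limma p = 0.00643, exact permutation p = 0.0286). The mean deviation of the astrocyte list ran from 0.01 to 0.11 in MS and from -0.10 to 0.01 in control mice. The 7 measured pituitary markers were all below 0, with a median of -0.84, and Tshb, the thyrotropin subunit, was at -2.19 (limma p = 0.0352, exact permutation p = 0.0857). Their mean deviation ran from -1.01 to -0.10 in MS and from -0.65 to 2.50 in control mice, where the highest value was that of control 6.2. The 7 fibroblast and meninges markers and the 7 striatum markers were also all below 0 (medians -0.18 and -0.09). Above 0 were 4 of 7 endothelial, 2 of 7 microglia, 4 of 6 myelin and 5 of 7 neuron markers. The same held for 3 of 8 choroid plexus, 2 of 5 thalamus and 4 of 10 hypothalamus identity markers. Of 8 anterior hypothalamus markers 2 were above 0 (median -0.16), with none at an unadjusted p under 0.05, and of 8 arcuate and ventromedial markers 5 were above 0 (median 0.06), with Npy, a peptide that promotes feeding, at 0.19 (limma p = 0.0344, exact permutation p = 0.0857). No marker passed at an adjusted p under 0.05, and the part of the cut of the tissue or of its cell content in the Hdc and Hrh1 values was not tested.

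Whether Hdc moved with the rest of the system from mouse to mouse was asked next. Over the 8 mice, Hdc had r = 0.44 with Hrh3, 0.35 with Hrh1, -0.09 with Hrh2 and -0.19 with Hnmt, with rho of 0.50, 0.43, -0.12 and 0.05. Exact permutation p ranged from 0.28 to 0.831 for r and from 0.216 to 0.935 for rho, and from 0.76 to 0.831 and 0.598 to 0.935 after adjustment over the 4 pairs. MS 5.3 and MS 7.6, which had the highest Hdc levels, lay farthest from its median, and without them r was 0.32, -0.01, 0.30 and 0.51 in the same order. For Hrh1 the sign turned when the group means were taken out (r = -0.43, exact permutation p = 0.135). Each row of the slide held 4 mice, too few for a correlation within it. After the row means were taken out, r was 0.40 with Hrh1 and -0.29 with Hnmt. No co-variation of Hdc with another histamine gene was detectable with 8 mice.

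**Figure D3:**
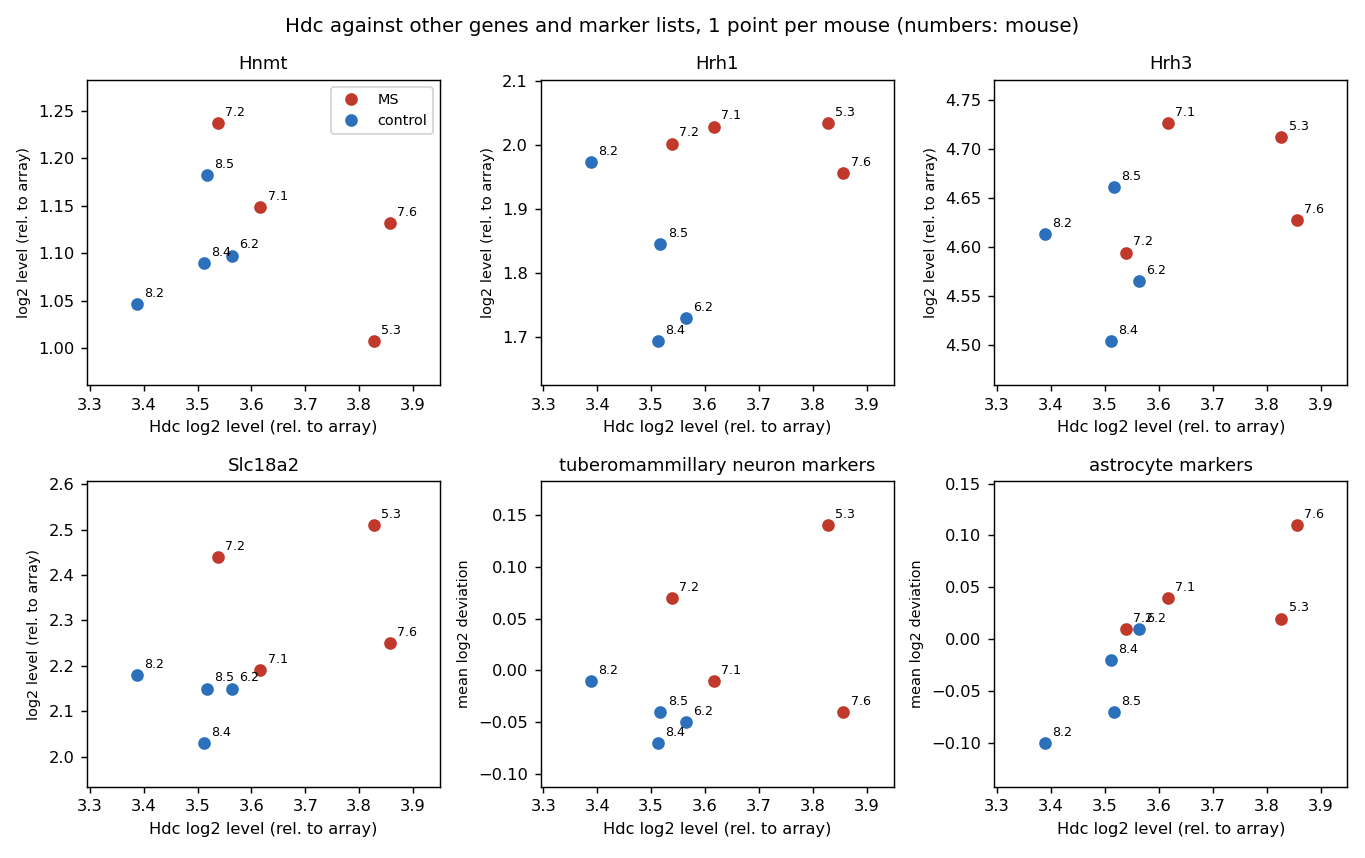
Level of Hdc (horizontal axis, log2 relative to the array) against the level of Hnmt, Hrh1, Hrh3 and Slc18a2 and against the mean deviation of the tuberomammillary and astrocyte markers from their own means (log2), 1 point per mouse with its number, MS and control in different colors. MS 5.3 and MS 7.6 hold the 2 highest Hdc levels, and the astrocyte markers show the closest order with Hdc (rho = 0.93).

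Hdc was then compared with the mean deviation of 18 marker lists. With the tuberomammillary list r was 0.38 (exact permutation p = 0.357, adjusted p = 0.676) and -0.03 without the 2 mice, with rho of 0.26. Among its genes r with Hdc was 0.77 for Prph, 0.51 for Slc18a2, 0.39 for Wif1, 0.38 for Maob, 0.04 for Gabre, -0.11 for Gad1 and -0.66 for Hcrtr2. With the mammillary list r was 0.37 and -0.28 without the 2 mice. With the other histamine handling genes it was 0.56 (exact permutation p = 0.157) and 0.73 without them. The deviations were not scaled by gene, so the most variable gene, Slc22a2, weighed most in this list. Slc22a2 was dim, with levels of -6.13 to -3.20 and an SD of 1.11 in MS and 1.17 in control mice. Its own r with Hdc was 0.31. The astrocyte list had the highest value, r = 0.84 (exact permutation p = 0.00818, adjusted p = 0.147) and 0.89 without the 2 mice, with rho = 0.93 (exact permutation p = 0.00223, adjusted p = 0.0402). This adjusted p stayed under 0.05 in 1 of 14 alternatives, the scaling by the median, and ran from 0.0625 to 0.513 in the others. Within the list, r with Hdc was 0.86 for Aqp4, 0.68 for Aldoc, an aldolase, 0.54 for Aldh1l1 and 0.45 for Gfap. It was 0.15 for Slc1a3, -0.04 for S100b and -0.30 for Gja1, a gap junction protein. The deviations of the astrocyte list were not scaled by gene either. Gfap varied most in it, with an SD of 0.21 in MS and 0.32 in control mice. Without the group means, r of Hdc with the list was 0.66 (exact permutation p = 0.0712, adjusted p = 0.288). In that setting rho was 0.71 (exact permutation p = 0.0573, adjusted p = 0.269).

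As a description of the Hdc pattern, r over the 8 mice with 17317 other genes had a median of 0.03 and a 5th to 95th percentile of -0.65 to 0.69, and 41 genes reached at least 0.9. The closest were Cep112 (0.989), Rbp3 (0.980), Klhdc7a (0.975), Atp6v0d1 (0.962), Utf1 (0.959), Rrm2 (0.953), Cd4 (0.945), Cog6 (0.944), Dgkb (0.941) and BC051019 (0.939). Cep112 encodes a protein of the centrosome, Rbp3 a retinoid-binding protein and Atp6v0d1 a subunit of the vacuolar proton pump. The most opposed were 4933406I18Rik (-0.955), Rlf (-0.955), Runx1 (-0.949), Calb2 (-0.947) and Tacr3 (-0.935), the last being the neurokinin B receptor and Calb2 calretinin. None of the other histamine or tuberomammillary genes was among these 15. These genes were picked from the 17317 by their r, so their values are given without a test. The 8 points share their arrays, which also holds for the correlations of Hdc with the histamine genes and the lists.

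**Figure D4:**
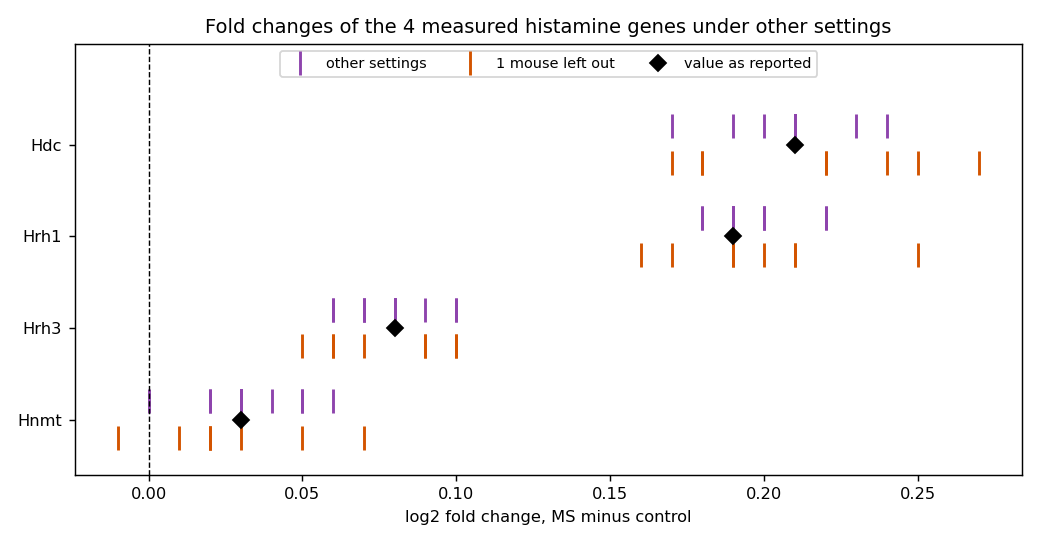
Log2 fold change of MS minus control (horizontal axis) for Hdc, Hrh1 (brightest probe), Hrh3 and Hnmt under the reported settings (diamond), with 1 mouse left out (lower ticks) and under other settings (upper ticks). Hdc ran from 0.17 to 0.27 and Hrh1 from 0.16 to 0.25, while Hnmt reached -0.01.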

How the data were processed

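The hypothalamus arrays of 4 MS and 4 control mice were analysed, grouped from the sample labels. The authors deposited the scanner output with an intensity per spot, made with Agilent Feature Extraction 10.10.1.1, which subtracts background and gives weak spots a substitute value. A second deposited file, of log2 values per probe with limma named in the submitters' notes, served as an alternative, and the sources used here do not give its normalization. The headers name mm9 and an array design number other than that in the methods.

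Processed signals of one probe's spots were averaged (59305 spots, 55681 probes), put on a log2 scale and centred on the 75th percentile of each array. Probes well above background on at least 4 arrays (37322) were tested with limma 3.58.1 in R 4.3.3, with Benjamini-Hochberg adjustment over all of them. Member values were also tested by exact permutation of the 70 labelings (two-sided), and correlations over 8 mice by all 40320 pairings. Each gene of a list was represented by its brightest tested probe, and a list by the mean deviation of its genes. Between 34086 and 39613 probes were well above background per array, no spot was saturated, and the number of arrays limits the precision. The limma step was tested on simulated data with planted changes larger than those of the tested histamine probes. Its power for differences of their size was not examined.

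The genes and lists were chosen with earlier results of these data known. The genes named were the 5 histamine genes with every probe and all genes of the histamine handling, tuberomammillary and mast cell lists. From other lists, where any was named, it was the gene with the smallest p in each direction. The 10 highest and 5 lowest correlations with Hdc were also named. Single genes shown beyond this were chosen after their values were seen. Alternatives were other scalings, background corrections, filters, blocks, variance models and each mouse left out. Arrays of the nucleus accumbens and prefrontal cortex were not analysed here.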

Additional observations from a re-analysis of the deposited data

How the results depend on the processing

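No result for Hdc, Hrh1, Hrh3 or Hnmt passed the adjusted threshold in any of 21 alternatives, and the sign held for Hdc (0.17 to 0.27), the brightest probe of Hrh1 (0.16 to 0.25) and Hrh3 (0.05 to 0.10), while Hnmt ran from -0.01 (without MS 7.2) to 0.07 with 1 mouse left out. The third Hrh1 probe, A_55_P2034081, turned to 0.02 with normexp and with the authors' table, and ran from -0.10 to 0.02 (without control 8.4) with 1 mouse left out. The Hrh1 probe A_66_P125883 ran from 0.13 to 0.76, the values of each slide row alone, and Hrh2 from 0.16 to 2.51 over 14 alternatives, with 0.45 (without MS 7.1) to 1.87 with 1 mouse left out. Probes called over the whole array numbered 0, and 1 in slide row 2 alone and 1 with the number before the dot in the mouse label as a random block. What that number stands for is not stated, and the groups shared none of these numbers. The estimated correlation within the block was -0.193, and a negative value narrows the standard error of the group difference. This setting is therefore no check on shared origin. The r of Hdc with Hrh2 was 0.22 with normexp and -0.68 after removal of the group means (exact permutation p = 0.123), and ran from -0.25 to 0.09 (without MS 7.6) with 1 mouse left out, with Hrh1 it was -0.43 after removal of the group means, and with Hnmt it ran from -0.51 to 0.24 (without MS 5.3). The rho of Hdc with the astrocyte markers was 0.64 with quantile scaling, 0.88 with normexp, 0.81 with the authors' table, 0.71 without group means, 0.93 without slide row means and 0.89 to 0.93 with 1 mouse left out. The number of lists passing by rho was 0 in these settings, against 1 as reported, and 0 with any 1 mouse left out, and by r it was 0 to 1 with 1 mouse left out, being 1 without MS 5.3 (r = 0.93, range 0.72 to 0.93). The causes were not tested. No paired analysis was possible because the groups share no mouse numbers. Hrh2 was not run in settings that need the filtered fit or the authors' table. Dim probes (Hrh2, the dim Hrh1 probes, and those of Hcrtr2, Aoc1 and Slc22a2) are limited by signal over background.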
